A study of Mus musculus with 2 samples.

Results

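The genes described here encode connexins and desmosomal proteins, the components of gap junctions and desmosomes, in organoids of normal mouse urothelium. They were taken as a list of 9 symbols: the connexins Gja1, Gjb2, Gjb5 and Gjb6, and the desmosomal genes Dsg2, Dsg3, Dsc2, Dsc3 and Pkp1. All 9 were present among the 31053 genes of both libraries. Cells were profiled in droplets with a 3′ kit that tags each captured RNA molecule with a unique molecular identifier (UMI), so that molecules are counted once. Organoids came from wild-type C57BL/6 mice 8 to 10 weeks old and were grown in Matrigel. Proliferative (P) organoids were kept in complete medium, which holds EGF, WNT3A, RSPO1, Noggin and the TGF-β receptor inhibitor LY2157299. Differentiated (D) organoids were first grown in the same medium and were then moved to medium without these 5 components. Each condition had 1 library, so comparisons have no replicate check and no p-value was computed. Cultures in the study usually came from unsorted urothelial cells, and the mice behind each library were not given in the sources used here.

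Gap junctions are clusters of channels through which neighbouring cells exchange ions and small molecules, and each channel is built of connexins. Desmosomes are adhesive plaques that tie the keratin filaments of neighbouring cells together. Their desmogleins (Dsg) and desmocollins (Dsc) are cadherins that bind across the gap between cells, and plakophilins, plakoglobin and desmoplakin link these cadherins to keratin. In stratified epithelia such as epidermis, Dsg3 and Dsc3 are best known from the deeper layers, while Dsg2 and Dsc2 are also found in simple epithelia. The urothelium is a layered epithelium with basal cells below and uroplakin-rich umbrella cells at the surface.

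The connexin genes lie in a few groups on the genome (GRCm38). Gja1, which encodes Cx43, is on chromosome 10 (56377330 to 56402513). Gjb2, which encodes Cx26, and Gjb6, which encodes Cx30, are close neighbours on chromosome 14 (57098600 to 57104702 and 57123303 to 57133611). Gjb5 is on chromosome 4 (127354809 to 127358181). The stretches upstream of the RefSeq transcription starts of these 4 genes (build GRCm38.p6) are shown because Gjb2 and Gjb6 had their highest levels in the same cluster of P cells, whereas Gja1 and Gjb5 had theirs in another. For Gja1 and Gjb5, the 95% counting interval in that cluster overlapped the interval in another cluster of P. In D, Gjb2 and Gjb6 were highest in different clusters, with overlapping intervals. Each stretch reads 5′ to 3′ on the strand of the gene, up to the start except for Gjb5. The Gjb5 stretch reads up to 18 bases before the start, where the GENCODE annotation already places an exon. Capitals mark matches on either strand to 4 motifs: TEAD (GGAATG), AP-1 (TGANTCA), grainyhead (AACCNGTT) and the GC box (GGGCGG).
Gja1, chr10:56377050-56377299, plus strand: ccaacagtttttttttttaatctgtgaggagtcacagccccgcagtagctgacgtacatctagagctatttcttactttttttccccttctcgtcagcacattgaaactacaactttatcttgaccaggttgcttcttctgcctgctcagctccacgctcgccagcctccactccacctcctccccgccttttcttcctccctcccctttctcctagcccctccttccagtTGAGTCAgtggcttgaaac
Gjb2, chr14:57104703-57104952, minus strand: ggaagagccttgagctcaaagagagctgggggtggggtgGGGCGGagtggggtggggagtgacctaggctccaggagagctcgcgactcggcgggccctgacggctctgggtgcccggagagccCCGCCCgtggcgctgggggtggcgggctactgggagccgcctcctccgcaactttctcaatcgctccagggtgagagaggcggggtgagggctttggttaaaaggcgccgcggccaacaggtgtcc
Gjb6, chr14:57133612-57133861, minus strand: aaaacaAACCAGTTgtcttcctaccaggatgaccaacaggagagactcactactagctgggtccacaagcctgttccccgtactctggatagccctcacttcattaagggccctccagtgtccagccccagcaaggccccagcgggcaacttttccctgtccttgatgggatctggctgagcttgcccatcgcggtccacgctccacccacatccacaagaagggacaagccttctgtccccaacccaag
Gjb5, chr4:127358182-127358414, minus strand: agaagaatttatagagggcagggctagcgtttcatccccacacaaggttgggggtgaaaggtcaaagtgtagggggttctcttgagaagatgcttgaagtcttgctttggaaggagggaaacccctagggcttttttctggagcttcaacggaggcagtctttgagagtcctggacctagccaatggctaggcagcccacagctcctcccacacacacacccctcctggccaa
The Gja1 stretch held 1 AP-1 match, which ended 13 bases before the start. The Gjb2 stretch held 2 GC boxes and had a GC content of 69.2%, against a median of 52.4% over all 32851 upstream stretches in the table. The Gjb6 stretch held 1 grainyhead match and a GC content of 56.8%, so the neighbours shared none of these letters. No match was found in the Gjb5 stretch. Over all stretches of 250 bases, 6.75% held an AP-1 match, 1.79% a grainyhead match, 32.7% a GC box and 12.6% a TEAD match. A match describes the letters only.

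After the filter of the study (more than 800 genes and at most 12% mitochondrial UMIs), 6818 of 8194 barcodes were kept in P and 4896 of 6975 in D, with 26681469 and 20305621 UMIs. The number for P is slightly below that stated by the study after its filter, and the reason was not found. The libraries shared 10 barcodes. Levels are UMIs summed over kept cells per 1000000 UMIs (CPM) with exact 95% Poisson intervals, and ratios carry exact conditional binomial intervals. All intervals cover counting error only. Since 1 UMI stands for 1 captured molecule whatever the length of the transcript, no length scaling was applied. How well the RNA of each gene was captured was not measured, which limits orders and shares between genes. The ribosomal protein share of UMIs was 35.6% in P against 20.3% in D. A median log2 ratio of 0.42, D over P, was found over the 8939 genes that had enough UMIs in both. Values after removal of this shift are given beside some of the ratios. Ratios of the whole libraries given without such a value still include the shift. The 10 basal cell markers were all detected, at 6126 CPM in P and 8521 in D, and the 5 uroplakin genes summed to 20.5 and 1245 CPM. Of other cell types, the 6 fibroblast genes summed to 1.99 CPM in P, with 3 of 6 detected, and to 62.5 in D, with 5 of 6 detected. Dcn gave 40 and 1234 UMIs of these sums, Col1a2 had 0 UMIs in both libraries, and Col1a1 and Col3a1 had 0 in P. The 4 leukocyte genes summed to 0.375 and 19.8 CPM with 3 of 4 detected in each library (Tyrobp at 0). Laptm5 gave 7 and 400 UMIs of these sums, and Ptprc had 1 and 2 UMIs. The 4 endothelial genes summed to 5.17 and 3.30 CPM with 2 of 4 detected (Cdh5 and Kdr at 0). The 4 smooth muscle genes summed to at most 0.197 CPM, and the 4 erythroid genes had 0 UMIs. The part of such cells in the results was not tested.

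To describe the junction genes across cell states, each cell was thinned to 2100 UMIs and placed in a marker class. Uroplakin-positive cells held at least 2 UMIs of the 5 uroplakin genes. Squamous cells held fewer and had at least 2 of 11 squamous markers, and basal cells had fewer than 2 uroplakin UMIs, 0 squamous markers and at least 4 of 10 basal markers. In P, 1829 cells were basal, 800 squamous and 42 uroplakin-positive, and in D, 1029, 106 and 1568. The remaining 3967 cells of P and 1714 of D met no class, and 180 and 479 cells were too shallow to be classed. These classes are ranges along marker counts, and 947 of the basal cells of P, 604 of its squamous cells and 433 of the uroplakin-positive cells of D sat exactly at the cut. In D, all but 2 of the 106 squamous cells sat at the cut, the class rested on Ivl (228 UMIs) and Sbsn (192), and Flg, Cnfn, Sprr1b, Krtdap and Tgm3 had 0 UMIs in it. In P the same class held 3577 UMIs of Flg. Of cells with at least 4 basal and 0 squamous markers, 0.109% in P (2 of 1831) and 7.96% in D (89 of 1118) reached the uroplakin cut. These were classed as uroplakin-positive, and whether their uroplakin RNA was their own was not tested.

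All 4 connexin members had lower levels in D organoids, while the desmosomal members stayed within 2-fold of P. Of the 9 members, 3 were lower in D by 2-fold or more (Gja1, Gjb2 and Gjb5), and 0 were higher by as much. The minimum was 100 UMIs summed over P and D. Of all 10719 genes that met it, 13.5% were called higher in D and 4.73% lower by the same rule. The median log2 ratio was −1.41 over the 4 connexin members and 0.28 over the 5 desmosomal members, against 0.41 over all genes tested. Once the shift was removed, Gjb6 also passed 2-fold, so that 4 of 4 connexin members and 0 of 5 desmosomal members were lower.

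**Figure D1:**
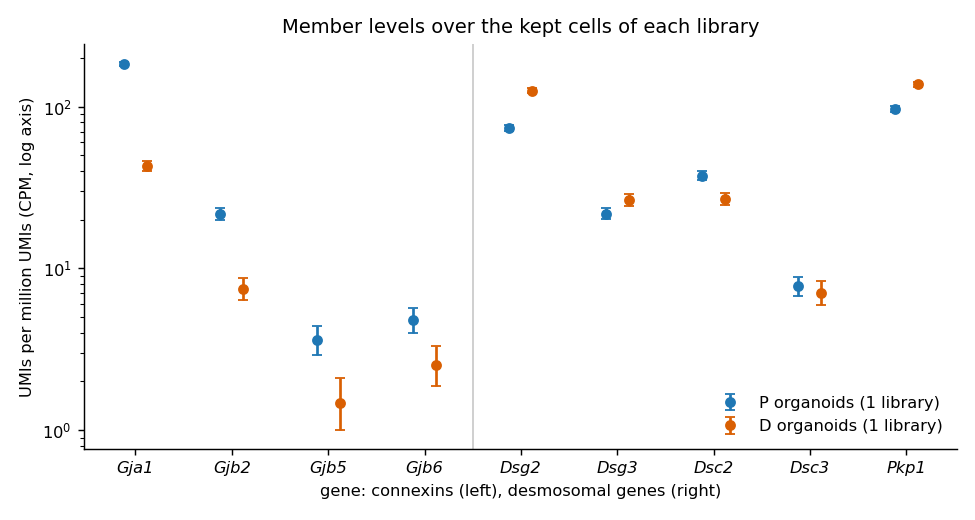
Levels of the 9 members over the kept cells of each library, in UMIs per 1000000 UMIs on a log axis, with P in blue and D in orange. Points are the 2 libraries and bars are 95% Poisson intervals. The 4 connexins on the left lie lower in D, and Gja1 shows the widest gap, from 182 in P to 43.0 in D.

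Gja1 encodes the most widely expressed connexin and was the most abundant member in P. Its level was 182 CPM in P (4861 UMIs) and 43.0 CPM in D (874 UMIs). The log2 ratio was −2.08 (−2.19 to −1.98), or −2.50 with the shift removed, and 1.77% of all genes tested lay lower. Gjb2, a connexin of glandular and stratified epithelia, stood at 21.6 and 7.49 CPM (577 and 152 UMIs), and its log2 ratio was −1.53 (−1.80 to −1.27). Gjb5, a connexin of skin and placenta, had 96 and 30 UMIs (3.60 and 1.48 CPM), a log2 ratio of −1.28 (−1.93 to −0.68). Gjb6 had 128 and 51 UMIs (4.80 and 2.51 CPM), a log2 ratio of −0.93 (−1.43 to −0.45) that became −1.36 with the shift removed. All 4 intervals lay below 0. At equal depth, 29.6% of P cells (28.5 to 30.7%) and 8.49% of D cells (7.68 to 9.35%) held a Gja1 UMI, and the unthinned shares were 43.4% and 13.9%. No class of these epithelial cells was fixed as one that should lack the genes, so a background share from free RNA was not measured.

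Among the 5 desmosomal members, Dsg2 and Pkp1 were the most abundant and had their higher level in D. Dsg2, the desmoglein most common in simple epithelia, had levels of 73.9 CPM in P and 125 in D, a log2 ratio of 0.76 (0.68 to 0.85) and of 0.34 with the shift removed. Pkp1, a plakophilin that clusters desmosomal cadherins and binds desmoplakin, was at 96.7 and 137 CPM, with 0.51 (0.43 to 0.58) and 0.08. Of all genes tested, 75.8% lay below Dsg2 and 57.7% below Pkp1. Dsg3, the desmoglein of deep epidermal layers, was at 21.8 and 26.5 CPM, a log2 ratio of 0.28 (0.11 to 0.45) that turned to −0.14 with the shift removed. Dsc2 had levels of 37.4 and 27.0 CPM, a log2 ratio of −0.47 (−0.62 to −0.32) and of −0.89 with the shift removed. Dsc3 was at 7.76 and 7.04 CPM, and its log2 ratio of −0.14 (−0.46 to 0.17) had an interval that held 0. With the shift removed it was −0.56. The direction of Dsg3 depended on the scaling, and that of Dsc3 turned to 0.07 for the mean over cells of per-cell CPM. These genes lie on chromosome 18, with Dsc3 (19960930 to 20002351) beside Dsc2 (20030633 to 20059554) and Dsg3 (20510274 to 20547459) beside Dsg2 (20558074 to 20604521), except Pkp1 on chromosome 1 (135871395 to 135919207).

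The order of the levels differed between the conditions. In P it ran Gja1, Pkp1, Dsg2, Dsc2, Dsg3, Gjb2, Dsc3, Gjb6 and Gjb5, and Dsg3 and Gjb2 did not differ beyond counting error (582 and 577 UMIs). In D, Pkp1 and Dsg2 came ahead of Gja1, followed by Dsc2, Dsg3, Gjb2, Dsc3, Gjb6 and Gjb5. There, Dsc2 and Dsg3 (548 and 538 UMIs) did not differ beyond counting error, nor did Gjb2 and Dsc3 (152 and 143 UMIs).

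To place these values among related genes, Panx1, 13 other desmosomal genes and 8 adherens junction genes were examined. Panx1, which forms large-pore membrane channels, had 81 and 166 UMIs in P and D (log2 ratio 1.43, or 1.01 with the shift removed). The other desmosomal genes gave 8 with enough UMIs, of which 2 were at least 2-fold higher and 0 lower. Pkp2, the plakophilin of simple epithelia and heart, had 15 and 114 UMIs (3.32), and Pkp4 was at 40.9 and 88.0 CPM (1.11, or 0.68 with the shift removed). Plakoglobin (Jup) was at 255 and 416 CPM (0.71), desmoplakin (Dsp) at 326 and 363 (0.16) and Perp, a membrane protein of desmosomes, at 606 and 614 (0.02). With the shift removed, Dsp and Perp stood at −0.27 and −0.40. Of the 8 adherens junction genes, Cdh1, which encodes E-cadherin, was at least 2-fold higher in D (116 and 295 CPM, 1.35, or 0.93 with the shift removed), and 0 were lower. The epidermal cadherins Dsg1a and Dsg1b had 0 UMIs in both libraries, and Dsg1c, Dsg4 and Dsc1 had at most 6.

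**Figure D2:**
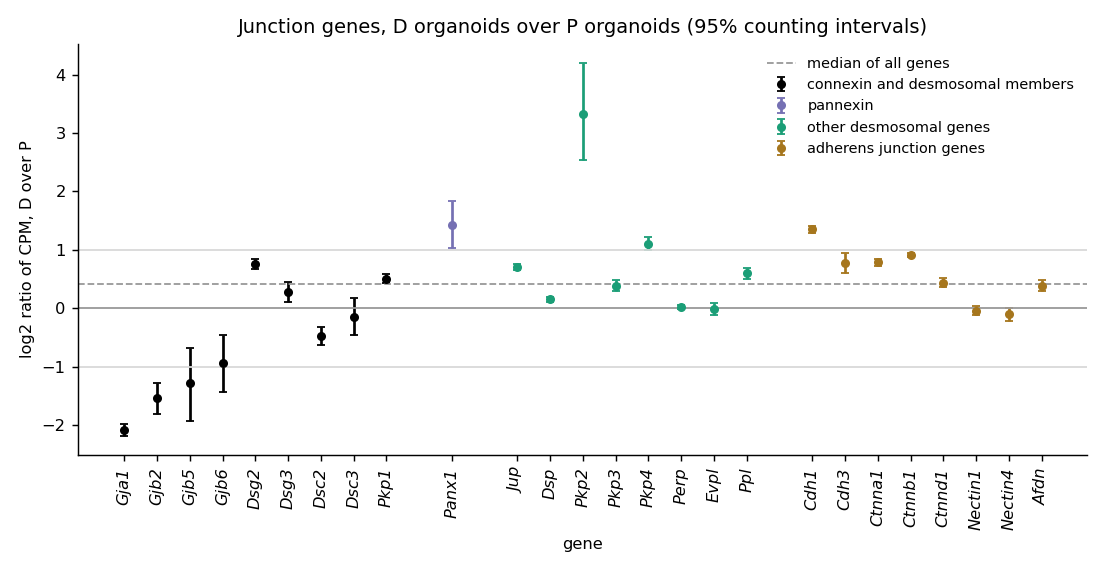
Log2 ratio of CPM, D over P, for the members (black), Panx1, and the other desmosomal and adherens junction genes with at least 100 UMIs. Bars are 95% counting intervals, the dashed line is the median of all genes at 0.42 and the light lines mark 2-fold. The 4 connexin members lie between −2.08 and −0.93, and Panx1 at 1.43.

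Within P organoids, squamous cells had more Gjb2, Gjb6 and Dsc2 and less Dsc3 than basal cells. Of the 8 members with at least 50 UMIs over both classes, 3 were at least 2-fold higher in squamous cells and 1 was lower, against 7.05% and 12.8% of 8969 genes. Gjb2 was at 7.87 CPM in basal cells (49 UMIs) and 45.6 in squamous cells (181 UMIs), a log2 ratio of 2.54 (2.07 to 3.02). Gjb6 had 4 UMIs in basal and 47 in squamous cells (0.642 and 11.8 CPM), with a ratio of 4.20 (2.75 to 6.14), and 99.6% of all genes tested lay lower. Dsc2, a desmocollin of upper as well as simple epithelial layers, was at 17.2 and 60.2 CPM, a log2 ratio of 1.81 (1.47 to 2.15). Dsc3 had 60 and 18 UMIs (9.63 and 4.54 CPM), a ratio of −1.09 (−1.93 to −0.31), and its call was lost in 5 alternatives, with the value nearest to 0 (−0.51) for clusters in place of classes. Gjb6 stood 1 UMI above the minimum of 50 and fell below it in 3 alternatives. Gjb5 had 33 UMIs in basal and 3 in squamous cells and did not reach the minimum.

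The other members did not reach 2-fold between these classes of P. Gja1 was at 211 CPM in basal and 158 in squamous cells, a log2 ratio of −0.42 (−0.56 to −0.28), so that it remained the most abundant member in squamous cells. Dsg2 was at 91.0 and 50.9 CPM (−0.84, −1.08 to −0.60), and stricter class cuts moved it past 2-fold, to −1.49. Dsg3 and Pkp1 were the higher in squamous cells, at 16.5 and 24.9 CPM (0.59, 0.18 to 1.01) and at 88.0 and 116 CPM (0.39, 0.21 to 0.58). With the stricter cuts Dsg3 was also past 2-fold, at 1.15. Among related genes, the envoplakin gene Evpl and the periplakin gene Ppl, whose products join the cornified envelope to desmosomes, were higher in squamous cells, at 23.1 and 129 CPM for Evpl and 25.5 and 117 CPM for Ppl. Cdh3, which encodes P-cadherin, was lower, with a log2 ratio of −2.64. Squamous cells were the deeper, with a median of 4260.5 UMIs against 3049 in basal cells. At equal depth, 1.48% of basal (0.975 to 2.14%) and 8.63% of squamous cells (6.77 to 10.8%) held a Gjb2 UMI, and 2.52% and 17.9% did before thinning.

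Uroplakin-positive cells of D organoids had little Gja1 and Dsc3 and more Dsc2 and Gjb2 than the basal cells of the same library. Of 7 members with enough UMIs, 2 were at least 2-fold higher and 2 lower, against 5.4% and 6.06% of 9709 genes. Gja1 was at 111 CPM in basal cells (443 UMIs) and 10.8 in uroplakin-positive cells (86 UMIs), a log2 ratio of −3.36 (−3.71 to −3.03), and 0.556% of all genes lay lower. Dsc3 was at 16.1 and 2.39 CPM (64 and 19 UMIs), a ratio of −2.75 (−3.57 to −1.99). Dsc2 was at 13.8 and 36.2 CPM, a ratio of 1.39 (0.97 to 1.84), and Gjb2 at 4.27 and 9.68 CPM (17 and 77 UMIs), a ratio of 1.18 (0.41 to 2.03). Dsg2 was at 127 and 129 CPM, with a ratio of 0.02 and an interval from −0.13 to 0.18. Dsg3 (39.1 and 19.6 CPM, −0.997, −1.33 to −0.67) and Pkp1 (179 and 101 CPM, −0.82) had the lower level in uroplakin-positive cells, and neither reached 2-fold. Dsg3 lay at the threshold, from −1.13 with stricter class cuts to −0.51 with clusters in place of classes. At equal depth, 20.7% of basal cells (18.3 to 23.3%) and 1.47% of uroplakin-positive cells (23 of 1568) held a Gja1 UMI. The unthinned shares were 31.3% and 4.78%, at median depths of 3043 and 3846 UMIs. For Gjb2 the shares at equal depth were 0.777% (0.336 to 1.53%) and 1.53% (0.983 to 2.27%), and these intervals overlapped.

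**Figure D3:**
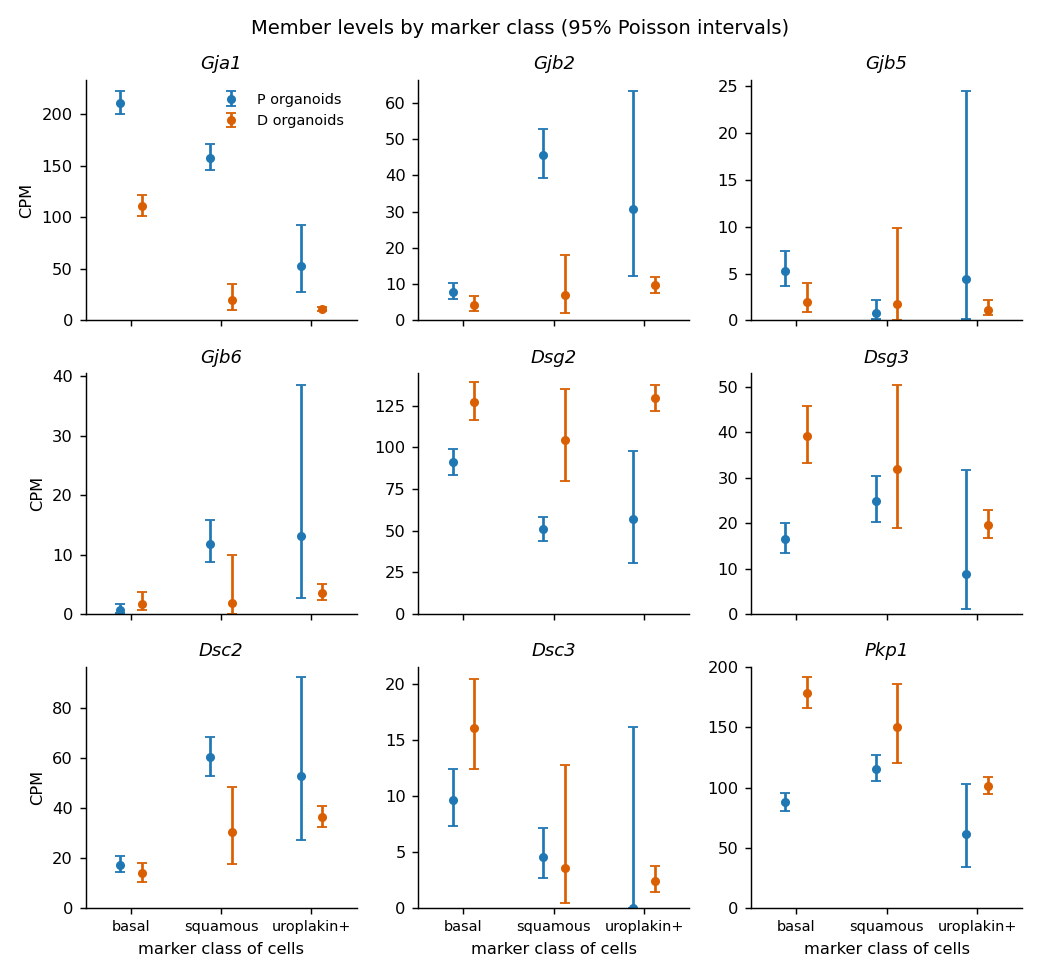
Levels of each member in CPM in basal, squamous and uroplakin-positive cells of P (blue) and D (orange). Points are sums over the cells of a class and bars are 95% Poisson intervals, which are wide for the 42 uroplakin-positive cells of P and the 106 squamous cells of D. Gja1 is highest in basal cells of both libraries, at 211 CPM in P and 111 in D.

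The 42 uroplakin-positive cells of P and the 106 squamous cells of D allowed coarser comparisons. Of these P cells, 40 lay in cluster 1 of P, which held most squamous cells. They carried Sprr2f at 413 CPM, Crnn at 369 and Ivl at 264, while Upk2 and Upk3a had 2 and 4 UMIs. In uroplakin-positive cells of D, Sprr2f was at 3.27 CPM and Crnn at 0.629, so the class holds different cells in the libraries. In P, uroplakin-positive over basal cells gave 2 members higher and 2 lower of 7 with enough UMIs, against 11.2% and 22.4% of 7888 genes. Gja1 had a log2 ratio of −2.00 (−2.96 to −1.19, 12 UMIs in uroplakin-positive cells), Dsc2 of 1.62 (0.62 to 2.48, 12 UMIs) and Gjb2 of 1.97 (0.58 to 3.12, 7 UMIs). Dsc3, counted among the lower, had 0 UMIs there, with a Poisson interval up to 16.2 CPM, above its 9.63 CPM in basal cells, so a difference was not detectable at this depth. In D, squamous over basal cells gave 1 member higher and 2 lower of 6, against 3.21% and 8.64% of 7623 genes. Gja1 had 11 UMIs in squamous cells and a ratio of −2.51 (−3.52 to −1.66), Dsc3 2 UMIs and −2.18 (−5.26 to −0.27) and Dsc2 17 UMIs and 1.13 (0.25 to 1.93). Gjb2 and Gjb6, the connexins called higher in squamous than in basal cells of P, had 4 and 1 UMIs in the squamous cells of D and did not reach the minimum.

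Within the desmocollins, the balance between the 2 genes moved with the class, and this share does not depend on how libraries are scaled. Dsc2 made up 64.1% of the UMIs of Dsc2 and Dsc3 in basal cells of P (56.3 to 71.3%) and 93.0% in its squamous cells (89.2 to 95.8%). In D it made up 46.2% in basal cells (37.0 to 55.6%) and 93.8% in uroplakin-positive cells (90.5 to 96.2%). The intervals of basal cells did not overlap those of the other class in either library. In the desmogleins, Dsg2 made up 84.6% of UMIs of Dsg2 and Dsg3 in basal cells of P (81.7 to 87.3%) and 67.1% in squamous cells (61.5 to 72.4%). In D it made up 76.5% in basal (73.1 to 79.7%) and 86.8% in uroplakin-positive cells (84.8 to 88.7%). Gja1 made up 93.9% of the UMIs of the 4 connexin members in basal cells of P and 93.3% in those of D. The share was 73.0% in squamous cells of P and 43.0% (36.0 to 50.2%) in uroplakin-positive cells of D, where Gjb2 reached 38.5% (31.7 to 45.6%).

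**Figure D4:**
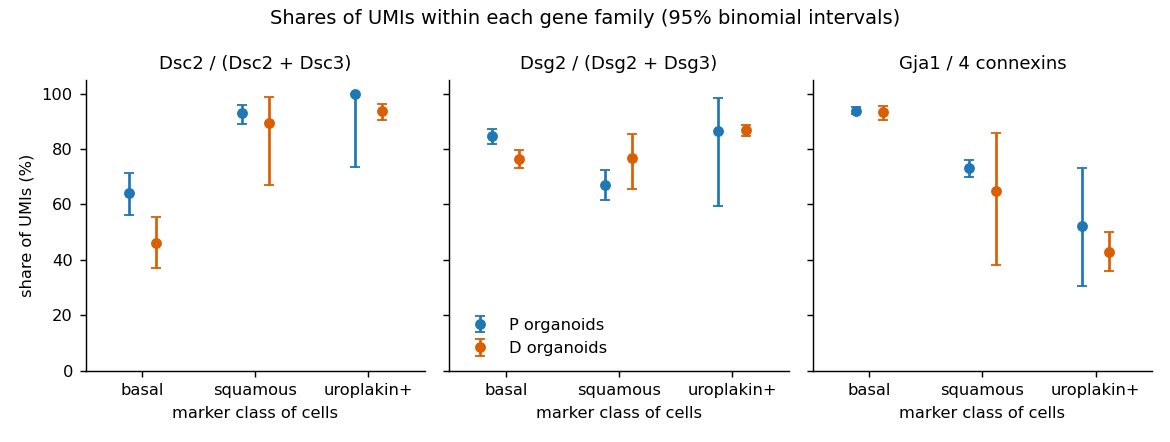
Share of UMIs, in percent, of Dsc2 among desmocollins Dsc2 and Dsc3 (left), of Dsg2 among Dsg2 and Dsg3 (middle) and of Gja1 among the 4 connexin members (right), by marker class in P (blue) and D (orange). Bars are 95% exact binomial intervals. The Dsc2 share is 64.1% and 46.2% in basal cells of P and D and at least 89.5% in the other classes.

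Gja1 was lower in D than in P in each marker class, but the squamous and uroplakin-positive classes do not hold like cells in P and D. Cluster 1 of P, led by Sprr3, held 95.2% of its uroplakin-positive and 92.4% of its squamous cells. In D, 76.4% of squamous and 56.1% of uroplakin-positive cells lay in cluster 0, led by Krt1. The part of these differences in cell makeup in the ratios was not tested. In basal cells the levels of Gja1 were 211 and 111 CPM in P and D, a log2 ratio of −0.92 (−1.08 to −0.77), or −1.37 with the shift of 0.44 removed. With cluster 0 of P and cluster 1 of D in place of the basal classes, the ratio was nearer to 0, at −0.48 (203 and 146 CPM). In squamous cells Gja1 was at 158 and 19.5 CPM (−3.02, −4.03 to −2.17, 11 UMIs in D), and in uroplakin-positive cells at 52.7 and 10.8 CPM (−2.29, −3.16 to −1.28, 12 UMIs in P). Gjb2 followed, at −0.88 in basal cells (−1.77 to −0.06, 17 UMIs in D), −2.68 in squamous cells (4 UMIs in D) and −1.67 in uroplakin-positive cells (7 UMIs in P). Among D cells that were classed or met no class, basal cells held 55.4% of Gja1 UMIs and 20.5% of all UMIs. Uroplakin-positive cells held 10.8% of Gja1 UMIs and 41.0% of all UMIs.

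Basal cells of D had more Dsg3 and Pkp1 than basal cells of P on the CPM scale. These were the 2 of 7 members at least 2-fold higher, and 0 were lower, against 15.7% and 4.68% of 9411 genes. Dsg3 was at 16.5 and 39.1 CPM (1.24, 0.87 to 1.62) and Pkp1 at 88.0 and 179 CPM (1.02, 0.86 to 1.19). With the shift removed they were at 0.80 and 0.58, no member was at least 2-fold higher, and Gja1 and Gjb2 became the 2 members at least 2-fold lower. Dsc3 was at 9.63 and 16.1 CPM (0.74, 0.21 to 1.27, or 0.29 with the shift removed), and Dsg2 at 91.0 and 127 CPM (0.49, or 0.04). Dcn was at 3.53 CPM in basal cells of P and 142 in those of D, and cells with at least 2 cycling markers made up 8.37% and 0.583% of them. Their part in these values was not tested, except that without cycling cells Dsg3 was higher, Pkp1 was not called and Gjb2 was lower. With clusters in place of classes, Dsg3 was not called and Dsc3 was called higher, at 1.21. Gjb2 (5.48 CPM in P and 2.44 in D) and Gjb5 (6.12 and 2.20 CPM) were then called lower.

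Levels were next followed along the number of markers per cell rather than across cuts. In P, Gjb2 stood at 13.4 CPM in cells without squamous markers (4026 cells), 25.6 with 1 marker, 38.0 with 2 and 65.3 with 3 or more (199 cells). Dsc2 stood at 27.6, 44.9, 57.6 and 70.1 CPM along the same bins, and Gja1 at 192, 177, 161 and 137. Dsc3 stood at 8.53, 7.63, 4.96 and 2.88 CPM, the last from 3 UMIs. Thus the levels of Gjb2 and Dsc2 were ordered upward and those of Gja1 and Dsc3 downward, with overlapping intervals between some neighbouring bins. In D, Gja1 stood at 76.8 CPM in the 2074 cells without a uroplakin UMI, 29.9 with 1 UMI, 4.83 with 5 to 9 and 7.02 with 10 or more (247 cells). Dsc3 stood at 12.7 CPM in cells without a uroplakin UMI and 3.64 with 1, and at most at 3.07 above that. Dsc2 stood at 19.9, 23.2, 36.2, 33.8 and 40.5 CPM, whereas Dsg2 stayed between 115 and 141. Pkp1 stood at 164, 146, 109, 98.3 and 79.5 CPM. Uroplakin-positive cells of D had a median of 2 basal markers against 5 in its basal cells, so these readings are not independent of the basal marker count.

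**Figure D5:**
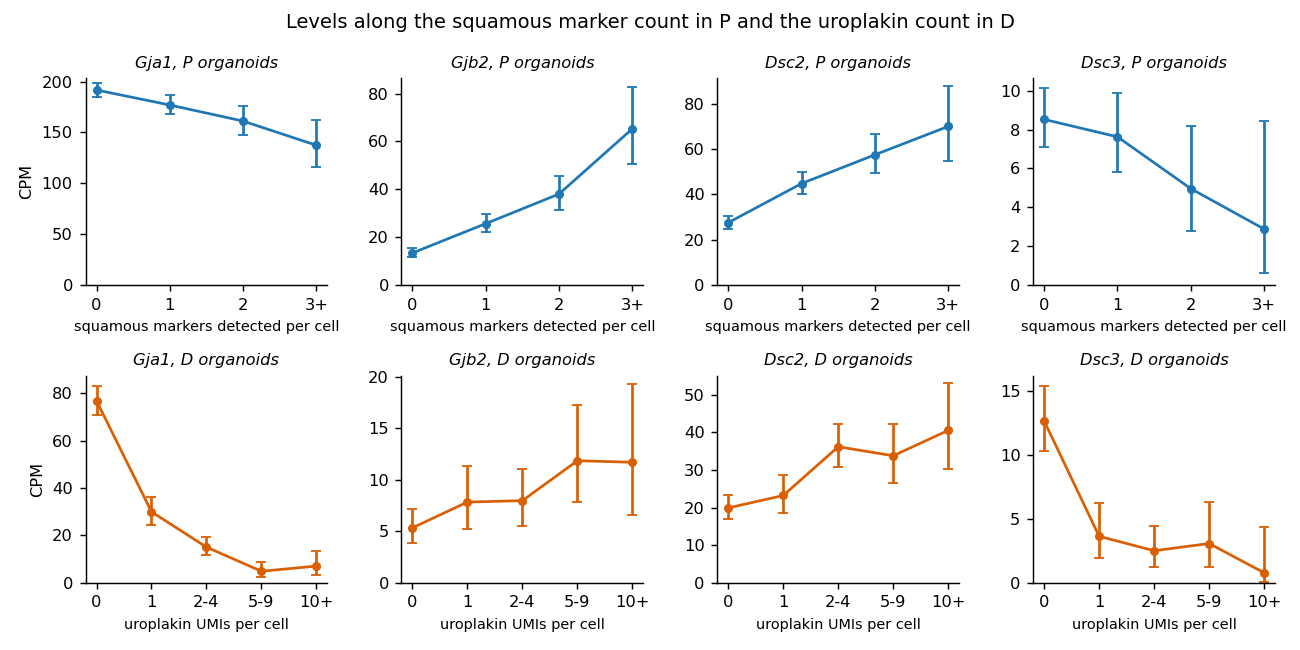
Levels of Gja1, Gjb2, Dsc2 and Dsc3 in CPM along the number of squamous markers per cell in P (top, blue) and along uroplakin UMIs per cell in D (bottom, orange), at 2100 UMIs per cell for the bins. Bars are 95% Poisson intervals. Gja1 runs from 76.8 to 4.83 and 7.02 CPM along the uroplakin bins of D, and Gjb2 from 13.4 to 65.3 along the squamous bins of P.

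Levels were also set along the number of basal markers. In D, Gja1 stood at 3.95 CPM in cells with at most 1 basal marker and 131 in cells with 6 or more, Dsg3 at 15.8 and 41.6, Pkp1 at 86.9 and 172 and Dsc3 at 0.719 (2 UMIs) and 17.3. In P the same bins gave 151 and 206 for Gja1, 25.4 and 18.6 for Dsg3, 94.9 and 82.8 for Pkp1 and 3.63 and 8.20 for Dsc3. Dsc2 was lower in the top than in the bottom bin of both, at 56.1 and 14.2 CPM in P and at 35.9 and 12.6 in D. Whether these differences between bins differ between the libraries was not tested.

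Members were also summed over clusters that were made without any junction gene, 4 in P and 3 in D. In P, cluster 1 (2498 cells, led by Sprr3, Cnfn and Sprr2f, with 92.4% of the squamous cells) had Gjb2 at 37.7 CPM, Gjb6 at 9.56 and Dsc2 at 56.1. The other 3 clusters had Gjb2 between 5.48 and 10.4 CPM, Dsc2 between 11.6 and 38.6 and at most 8 UMIs of Gjb6. Gja1 ranged in P from 157 CPM in cluster 3 (351 cells, led by the mitosis genes Ccna2, Hmmr and Nusap1) to 203 in cluster 0 (2579 cells, with 69.9% of the basal cells). In D, cluster 1 (1305 cells, led by Acta2, Cav1 and Ms4a10, with 66.9% of the basal cells) had Gja1 at 146 CPM, Dsc3 at 18.3 and Dsc2 at 6.35. Cluster 0 (2784 cells, led by Krt1 and Ces1d) had 20.9, 5.21 and 29.7, and cluster 2 (807 cells, with Upk3a and Upk3b among its leading genes) had 7.11, 1.55 and 38.6.

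For each member, the genes whose pattern was most like it were sought over 17 small clusters in each library, among 7222 genes with at least 200 UMIs in each. Pearson r values describe these clusters, which share a library and carry no p. The closest to Dsc2 were Sptssb, Grhl1 and Rhov (mean r over the libraries 0.92, 0.92 and 0.91), and Grhl1 encodes a grainyhead-like transcription factor. The closest to Pkp1 was Dsp, the desmoplakin gene (0.85), before Skint3 (0.77), and the closest to Dsg3 was Perp (0.76), before Anxa2 and Pycard (0.74 and 0.72). Gjb2 was closest to Tspan14, Calm3 and Epha2 (0.85, 0.83 and 0.82), Dsc3 to Npm3, Atp1b3 and Kti12 (0.87, 0.86 and 0.83) and Dsg2 to Rab11fip2, Surf2 and Tmem218 (0.85, 0.83 and 0.82). Gja1 was closest to Slc39a6, Fam162a and Spg21 (0.76, 0.76 and 0.74). Gjb6 was closest to Ly6d, Hebp2 and Sat1 and Gjb5 to Ddx52, Krtcap2 and Gfer, with mean r from 0.75 to 0.85, but these rest on 51 and 30 UMIs in D. Gjb2 and Dsc3, with 152 and 143 UMIs in D, also fell below the 200 UMIs asked of the compared genes, so their r values in D are imprecise. Between members, Gjb2 and Dsc2 had r of 0.82 in P and 0.70 in D, and Gjb2 and Gjb6 0.92 in P and −0.13 in D. Gja1 and Dsc3 had r of 0.92 in D and close to 0 in P, and Gja1 and Dsc2 −0.74 in D and −0.16 in P.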

How the data were processed

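Single-cell libraries of 1 P and 1 D organoid culture were made with the 10x Genomics 3′ v3 kit. Per the study and the submitters' processing notes, the authors used bcl2fastq 2.19.0 and Cell Ranger 3.0.2 with GRCm38/mm10. The deposited values are raw UMI counts per gene and barcode, with no normalization, and each group's label came from the sample records. Median depth was 3405.5 UMIs per kept cell in P and 3227.5 in D. UMIs were summed over cells (Python 3.11.15, NumPy 2.4.6, SciPy 1.17.1). With 1 library per group no test was possible, and a call meant at least 2-fold, with a minimum of 100 UMIs summed over the libraries or 50 over the classes. Clusters were made in Seurat 5.3.0 (R 4.3.3, 25 components in P and 21 in D, resolutions 0.2 and 2) without junction genes, from 1985 and 1984 features. Likeness used log2(CPM + 1). Doublets were kept: Scrublet (Scanpy 1.11.5) called 0 cells with its automatic cut and therefore did not work, so the 5% of cells with the highest scores were left out instead, an alternative chosen after seeing the data. The ratio script was checked on simulated counts.

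The members and gene lists were chosen with earlier results of these data known. Named genes are the 9 members, the related junction genes in fixed lists and the 3 genes most alike to each member. Some genes that this rule names are not reported here. Leading genes of clusters were named after their values were seen. Class cuts were set on marker distributions alone. Upstream sequences came from RefSeq (GRCm38.p6), in which the 4 connexins of the 9 members were matched, and gene positions from GENCODE M21. Sequences of the other members are not shown. Alternatives covered scaling, cell filters, the call threshold, class cuts, clusters, doublets and cycling cells.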

Additional observations from a re-analysis of the deposited data

Results flagged for a closer look

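Members were also counted in the barcodes that the filter left out, 1376 in P and 2079 in D. These were data outside the comparisons, and members had signal there. Per 1000000 non-mitochondrial UMIs, the 9 members reached 524 among removed P barcodes (493 to 557) against 478 in its kept cells (470 to 487), and 602 among removed D barcodes (569 to 636) against 407 (398 to 416). In D, Pkp1 was at 263 in the barcodes left out and 148 in kept cells, and Dsg3 at 51.2 and 28.5, while Gja1 was at 54.5 and 46.3. Gja1 was also lower in D among these barcodes, at 201 in P and 54.5 in D. They came from the same libraries as the kept cells, so this is not a separate check. These barcodes were set apart by few genes or a high mitochondrial share, and the part of RNA quality in their values was not tested.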

How the results depend on the processing

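Under the alternatives, 417 of 467 values of single members lay within their counting interval, 50 lay outside it, and 0 called values changed sign. The 417 include every value of the 1.5-fold call, which changes no ratio. Those values could not move, so the tally overstates how stable the ratios were. In the comparison of the libraries, Gja1 ranged from −2.50 to −1.83, Gjb2 from −1.95 to −1.42 and Gjb5 from −1.71 to −1.21, so that all 3 stayed past 2-fold. At a 1.5-fold call, 1 member was higher in D in place of 0. For squamous over basal cells of P, the count of members lower was 2 at 1.5-fold and 0 in place of 1 with classes from unthinned UMIs, without cycling cells or without the 5% highest Scrublet scores. With clusters the count stayed at 1, but Gjb5 took the place of Dsc3 (−1.50 and −0.51). With stricter class cuts, Dsg2 (−1.49) took its place and Dsg3 (1.15) that of Gjb6, since Dsc3 and Gjb6 had too few UMIs. Dsg3 passed 2-fold in uroplakin-positive cells of D in 3 alternatives, with its lowest value (−1.13) at stricter cuts. In D, the count of members higher in squamous cells was 0 in place of 1 with uroplakin-positive cells set at 1 UMI. The count lower in uroplakin-positive cells was 4 in place of 2 at 1.5-fold in D, and 4 in place of 2 in P at 1.5-fold and with median-ratio scaling. For D over P in basal cells, the counts of 2 higher and 0 lower became 0 and 2 with median-ratio scaling or without mitochondrial and ribosomal protein genes. There, the count lower was 2 at 1.5-fold and with clusters, and 1 with unthinned classes, and without cycling cells it was 1 higher and 1 lower. Scaling by the median ratio removes the shift by construction, and the cause of the other moves was not tested. The share of all genes at least 2-fold lower in D was 6.89% at a minimum of 20 UMIs and 2.91% at 500. Comparisons with under 20 cells in a class were not run: stricter cuts for squamous cells of D (5 cells) and for uroplakin-positive cells of P (12 cells at 3 UMIs). No cluster stood for either of these classes.

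No paired analysis was possible because each condition had 1 library. The depth of Gjb5 and Gjb6, with 30 and 51 UMIs in D, leaves their values in classes and clusters of D imprecise, and the squamous cells of D held 563972 UMIs in all. Cells of 1 library are not replicates, and differences between cultures cannot be told apart from the effect of the medium.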
